A study of Mus musculus with 3 samples.

Results

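The 37 genes described here encode the NFAT, NF-kB and AP-1 transcription factors that act downstream of the T cell receptor, the inhibitors that hold NFAT and NF-kB in check, and the EGR, NR4A, IRF, MYC and BHLHE factors that work beside them. They were found by matching a list of gene symbols to gene identifiers with the version removed, and all 37 were present among the 50600 genes measured, of which 21764 are protein-coding. The libraries were made from primary cells of C57BL/6NJ mice labelled T-helper 1, a class of CD4 cell that drives cell-mediated immunity, in 1 group of 3 biological replicates. Each replicate had its own biosample record and all shared a donor record, so a p-value below concerns only these samples. Age and sex were not recorded, the labels named no treatment beyond a linked protocol for differentiating CD4 T cells, and a tag of 16 hr stood in the headers of the files alone. Total RNA was given as the molecule, whereas the linked library protocol carried poly(A) in its name.

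Engagement of the T cell receptor opens several routes to the nucleus. Calcium activates the phosphatase calcineurin, which strips phosphate from NFAT proteins so that they enter the nucleus. A kinase relay degrades IkB proteins and frees NF-kB dimers, and MAP kinases raise FOS and JUN family proteins, which pair as AP-1 and bind DNA together with NFAT. The EGR, NR4A and several IkB genes are themselves early targets of these routes, and BATF and IRF4 pair on composite sites in activated T cells.

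Gene counts summed to 4764598, 2568928 and 2815439 in replicates 1, 2 and 3, and levels are given as TPM (counts scaled for gene length and then to the same total in each library), where 1 TPM stood for 2.26, 1.28 and 1.59 counts per kilobase of exon. Genes whose exons share bases with exons of the other strand took 56.1%, 60.3% and 71.6% of the counts. A gene is called clear below where its exons meet no gene body of the other strand, and a second scale is used that sums TPM over clear genes alone. All 11 T cell markers were detected, with a summed level of 2200, 1701 and 1114 TPM in replicates 1, 2 and 3, while 1 of 8 T-helper 1 markers was (Il12rb2, which is not clear), and Tbx21 and Ifng had 2, 10 and 2 and 1, 0 and 0 counts. Of 6 markers of natural killer and CD8 T cells 1 was detected, the clear gene Cd8b1 with 97, 15 and 36 counts. Cd8a had 0 counts in each library and Gzmb had 2, 14 and 0. The cells are therefore called by their label here. Despite the shared donor record, Xist had 807, 1110 and 4 counts and the Y-linked Ddx3y had 161, 0 and 81, and mt-Co2, mt-Atp6 and mt-Co3, which all cells use, had 0 counts in each library (genes chosen after their values were seen). In bulk RNA, fewer cells of a type cannot be told apart from less RNA per cell.

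Most of the factors were detected on the strand counted, and whether that is the sense strand was not tested. In every library 32 of the 37 reached 1 TPM, the level called detected here, against 39.8% of 21764 coding genes. Of the 29 clear factors 24 were detected, against 33.6% of 15865 clear coding genes, and all 8 factors with exons opposite another gene were. The mean level was at least 100 TPM for 6 factors, 10 to 100 TPM for 18, 1 to 10 TPM for 11 and under 1 TPM for 2. Over the 37 factors the median of the mean levels was 21.0 TPM, against 0.378 TPM over all coding genes, and over the 32 detected factors it was 24.3 TPM, against 14.1 TPM over detected coding genes. Fosb and Batf3 stayed under 1 TPM in each library, and Fos, Atf3 and Nr4a2 fell on both sides of that level.

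**Figure D1:**
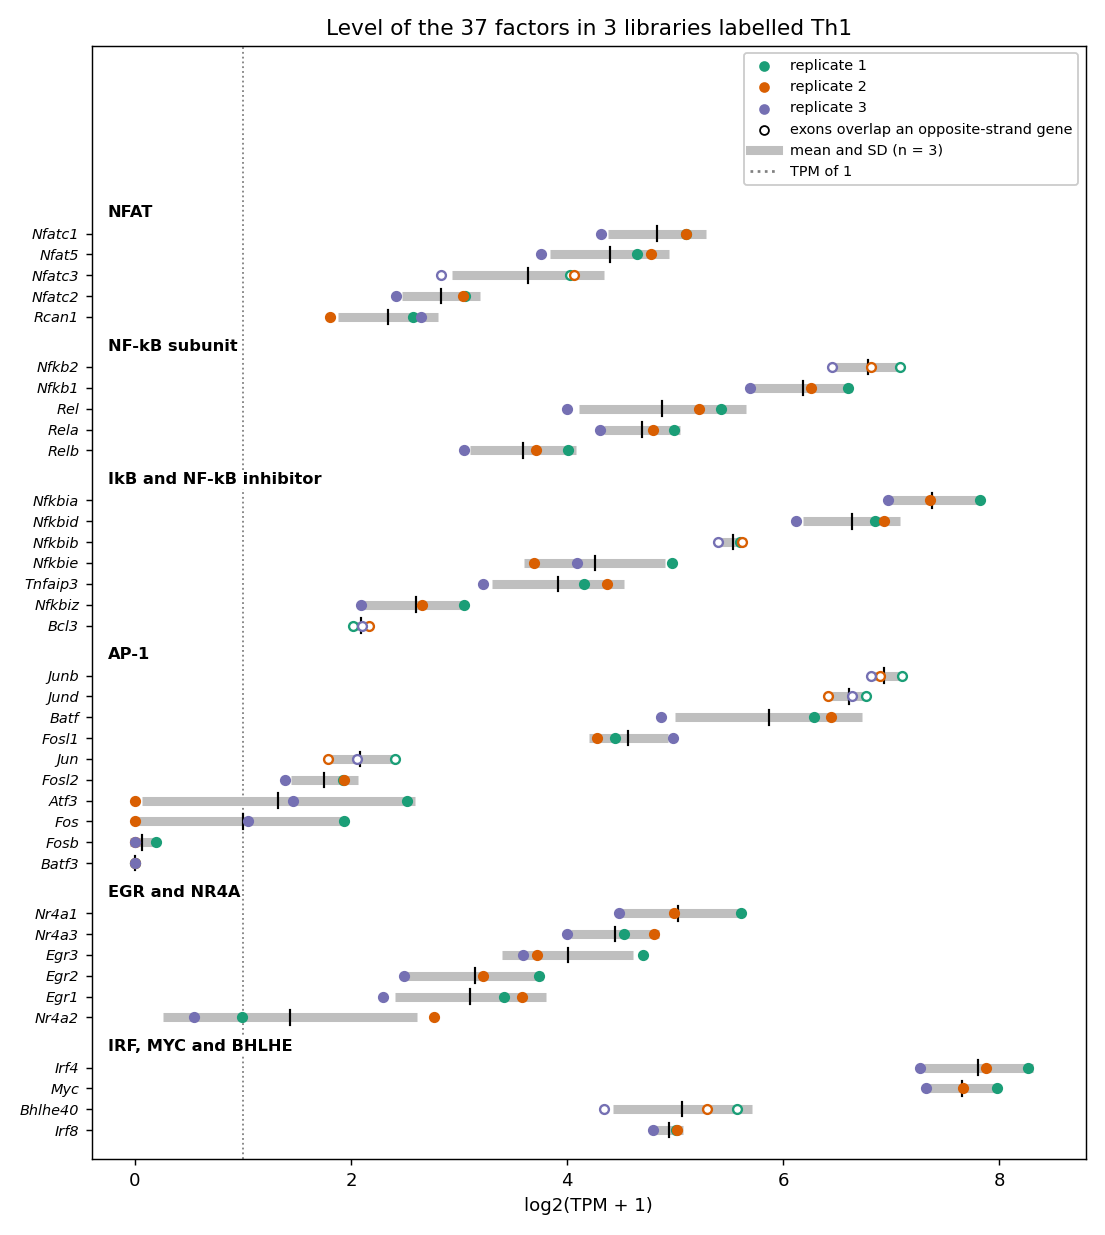
Level of each of the 37 factors, grouped by role, as log2(TPM + 1) on the horizontal axis, with a point per library, a tick at the mean and a grey bar of 1 SD (n = 3). Irf4 and Myc lie furthest to the right, Fosb and Batf3 lie at or near 0, and open points mark the 8 factors whose exons overlap a gene of the other strand.

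In descending order of level the list opened with Irf4, Myc, Nfkbia, Junb, Nfkb2 and Nfkbid, as the plot of levels by role shows. The order is coarse: of 36 neighbouring pairs in it, 6 differed in log2(TPM + 1) by more than the SD of their difference with the same sign in each library. Those were Myc over Nfkbia (0.27 ± 0.10), Nfkbia over Junb (0.45 ± 0.28), Tnfaip3 over Nfatc3 (0.28 ± 0.14), Relb over Egr2 (0.44 ± 0.16), Nfatc2 over Nfkbiz (0.24 ± 0.20) and Bcl3 over Fosl2 (0.34 ± 0.33; SD, n = 3 each). Irf4 and Myc did not differ beyond their spread (0.15 ± 0.18). The pairs were ordered by these same values, so the 6 are a description and not a test. How many pairs would pass with no difference between genes was not computed.

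All 4 NFAT genes of the list and the calcineurin regulator Rcan1 were detected, and Nfatc1 was the highest of them. Nfatc1, whose gene is switched on by NFAT itself in activated T cells, had 33.3, 33.2 and 18.9 TPM in replicates 1, 2 and 3. Nfatc2, the NFAT protein already present in resting T cells, had 7.30, 7.19 and 4.34 TPM. The values of the 2 genes did not overlap, and replicate 3 was the lowest library for each.

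The log2 ratio of Nfatc1 to Nfatc2, on the log2(TPM + 1) scale as are all ratios below, was 2.05, 2.06 and 1.90, a mean of 2.00 ± 0.09 (SD, n = 3) and the smallest SD of the 12 ratios computed within families. Nfat5, which responds to osmotic stress and lacks the calcineurin docking region, had 24.01, 26.4 and 12.6 TPM, between Nfatc1 and Nfatc2 in each library. Nfatc3, a calcineurin-regulated factor of thymocytes and T cells, had 15.3, 15.7 and 6.12 TPM and exceeded Nfatc2 by 0.81 ± 0.34, although its exons share 219 bases with Esrp2 on the other strand. Rcan1, which binds calcineurin and is an NFAT target, rested on 28, 8 and 21 counts (4.24 ± 1.51 TPM; SD, n = 3).

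Of the summed NFAT level of 68.1 ± 22.7 TPM, Nfatc1 made up 42.3% ± 2.46, Nfat5 30.7% ± 1.12, Nfatc3 17.6% ± 2.604 and Nfatc2 9.40% ± 0.857 (SD, n = 3). The sum varied more than the shares: it was 79.9, 82.5 and 41.9 TPM in replicates 1, 2 and 3, while the share of Nfatc1 stayed between 40.3% and 45.05%. Nfatc4, a family member outside the list named after its values were seen, had 0 counts in each library.

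The 5 NF-kB subunit genes were all detected, led by the 2 that encode precursor proteins. Nfkb2, the precursor of p52 in the non-canonical pathway, had 135, 111 and 86.4 TPM, and its exons meet those of Psd on the other strand by 4 bases. Nfkb1, the precursor of p50, had 96.1, 75.3 and 50.6 TPM. Both were highest in replicate 1 and lowest in replicate 3, and Nfkb1 lay below Nfkb2 in each library, with a log2 ratio of -0.60 ± 0.14 (SD, n = 3). Without length scaling, in CPM, that ratio turned to 1.26, since Nfkb1 has the longer exons and the higher counts.

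The subunits that carry activation domains were lower. Rel (c-Rel), the subunit that drives Il2 in T cells, had 41.9, 36.3 and 15.0 TPM. Rela (p65), the broadly expressed partner of p50, had 30.7, 26.8 and 18.8 TPM. Rel exceeded Rela in replicates 1 and 2 and lay below it in replicate 3, so that the log2 ratio of Rel to Rela, 0.44, 0.42 and -0.30, did not hold one sign (0.19 ± 0.42; SD, n = 3).

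Relb, the usual partner of p52, had 15.1, 12.1 and 7.29 TPM and was the lowest of the 5. Summed over the subunits the level was 253 ± 70.7 TPM, of which Nfkb2 made up 44.5% ± 3.53, Nfkb1 29.1% ± 0.911, Rel 11.8% ± 2.96, Rela 10.1% ± 0.458 and Relb 4.48% ± 0.342 (SD, n = 3). In replicate 3 the share of Rel was lowest (13.2%, 13.9% and 8.42% in replicates 1, 2 and 3) and that of Nfkb2 highest (42.3%, 42.5% and 48.5%).

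The 7 IkB and NF-kB inhibitor genes of the list together had a higher summed level than the 5 subunit genes. The sums were 444, 374 and 265 TPM against 319, 262 and 178 TPM in replicates 1, 2 and 3. The 7 include the nuclear IkB genes Nfkbid, Nfkbiz and Bcl3, and no sum was made without them. Nfkbia (IkB alpha), which traps NF-kB in the cytoplasm and is rebuilt within each round of signalling, was the highest with 225, 164 and 124 TPM. Nfkbid (IkB-NS), a nuclear IkB protein, had 114, 122 and 68.6 TPM. Those 2 made up 47.1% ± 3.43 and 28.1% ± 3.88 of the sum (SD, n = 3), and replicate 3 was the lowest library for both.

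Nfkbib (IkB beta) had 47.4, 48.1 and 41.2 TPM, and Nfkbia exceeded it by 1.85 ± 0.34 in log2 ratio (SD, n = 3); its exons share 314 bases with Ccer2 and 42 with Sirt2. Nfkbie (IkB epsilon) had 30.4, 11.98 and 16.1 TPM, from 166, 37 and 62 counts. In TPM, replicate 2 was the lowest library for Nfkbie, whereas 26 of the 32 detected factors were lowest in replicate 3. That count follows the scale in part, since the median detected coding gene also deviated by -0.43 (log2) in replicate 3. With clear genes alone as the scale, 10 of 24 detected clear factors were lowest in replicate 2 and 9 in replicate 3. Nfkbie was thus not exceptional on that scale.

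Tnfaip3 (A20), the ubiquitin-editing enzyme that ends NF-kB signalling, had 16.8, 19.7 and 8.36 TPM. The nuclear IkB genes Nfkbiz and Bcl3 were low, with 7.25, 5.31 and 3.26 TPM for Nfkbiz (IkB zeta) and 3.05, 3.48 and 3.30 TPM for Bcl3, which partners p50 and p52 dimers. Bcl3 rested on 17, 11 and 13 counts, and 161 of its exon bases lie opposite the antisense gene Gm16175.

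The promoters of these genes are shown because NF-kB is known to drive its own inhibitors. In RefSeq, build GRCm38.p6 (mm10), windows were given for 28 of the 37 factors; Bhlhe40, Egr1, Egr3, Fosl1, Myc, Nfatc1, Nfkb1, Nfkbiz and Relb were not among them. The NF-kB decamer, searched on both strands in the 250 bases before each start, was found for 9 of 28 factors (32.1%), against 4.46% of 27025 genes with a window. The 28 factors had 1.46 starts on average and all genes had 1.22. The 9 were Nfkb2, Rel, Nfkbia, Nfkbid, Nfkbie, Tnfaip3, Fos, Fosb and Fosl2, and 7 of them were detected. Below, a decamer matched on either strand stands in capitals, each sequence is read 5′ to 3′ along the strand of its gene, and no window touches an annotated exon. Nfkbia is shown from chr12:55492648-55492701 (minus strand), Nfkb2 from chr19:46304673-46304732 (plus), Nfkbid from chr7:30422200-30422259 (plus), Nfkbie from chr17:45555569-45555628 (plus), Rel from chr11:23771027-23771086 (minus) and Tnfaip3 from chr10:19015411-19015447 (minus).
Nfkbia: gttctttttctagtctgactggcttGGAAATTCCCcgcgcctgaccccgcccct
Nfkb2: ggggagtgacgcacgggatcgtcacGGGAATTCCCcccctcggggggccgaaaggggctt
Nfkbid: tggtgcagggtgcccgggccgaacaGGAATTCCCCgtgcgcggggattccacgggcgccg
Nfkbie: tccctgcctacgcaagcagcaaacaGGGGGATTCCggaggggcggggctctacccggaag
Rel: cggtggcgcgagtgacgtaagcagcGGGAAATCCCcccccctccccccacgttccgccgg
Tnfaip3: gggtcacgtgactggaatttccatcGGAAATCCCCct
The decamer shown for Nfkbia lies 29 to 20 bases before its start and that of Tnfaip3 12 to 3 bases before. Those of Nfkb2, Rel, Nfkbie and Nfkbid begin 39, 92, 106 and 181 bases before theirs. A match in these letters is a description of the window and not a measured binding site.

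The 6 genes shown ranged in level from 171 ± 50.7 TPM for Nfkbia to 15.0 ± 5.92 TPM for Tnfaip3 (SD, n = 3). Other motifs were searched in the same windows and strands. AP-1 (TGACTCA) was found for 3 of 28 factors (10.7%; Nfkbie, Rcan1 and Tnfaip3), against 5.16% of genes. The cyclic AMP response element (TGACGTCA) was found for 2 (7.14%; Nfkbid and Rcan1), against 1.77%. The E-box (CACGTG) was found for 5 factors (17.9%), against 6.86% of genes, and the NFAT core (GGAAAA) for 5 (17.9%), against 22.9%. The EGR (GCGTGGGCG) and NR4A (AAAGGTCA) motifs were found for 0, against 0.622% and 1.55%.

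Among AP-1 genes, Junb, Jund, Batf and Fosl1 were the highest, while Fos and Fosb, the classical immediate early members, averaged 1.299 and 0.0474 TPM. Those low means rested on replicate 1: without it Fos averaged 0.535 TPM and Fosb had 0 counts, and without replicate 2 Fos averaged 1.949 TPM. Junb had 136.5, 118 and 111.5 TPM and Jund had 108.2, 84.1 and 98.4 TPM. Both proteins dimerise with FOS and BATF proteins, and Jund is the member that resting cells also express. Jun, the founding member, rested on 31, 10 and 16 counts (4.31, 2.46 and 3.16 TPM).

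Junb exceeded Jun by 4.85 ± 0.22 and Jund by 0.33 ± 0.15 in log2 ratio, with the same sign in each library (SD, n = 3). Of the summed JUN level of 222 ± 23.5 TPM, Junb made up 54.95% ± 2.70, Jund 43.6% ± 2.56 and Jun 1.47% ± 0.266. All 3 have exons opposite another gene, so no JUN gene has a value on the scale of clear genes.

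In the FOS family Fosl1 (FRA-1), which lacks the activation domain of FOS, had 20.8, 18.4 and 30.6 TPM from 80, 40 and 83 counts. Fosl1 and Rcan1 were the 2 detected factors with their highest level in replicate 3. Fosl2 (FRA-2), an AP-1 partner in T-helper 17 cells, had 2.80, 2.83 and 1.62 TPM.

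Fos had 15, 0 and 4 counts (2.83, 0 and 1.07 TPM), where a count of 0 allows up to 1.00 TPM. In replicate 2 Fosl2 lay 2.84-fold above what 0 counts allow for Fos, taking 3 counts per library as the floor. The counting error of Fosl2 itself is not in that value. In replicate 1 the 2 were level (log2 ratio -0.01). Fosb had 2, 0 and 0 counts, and Fosl1 made up 85.6% ± 6.87 of the FOS family level of 27.0 ± 6.05 TPM (SD, n = 3).

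Batf, which pairs with JUN proteins and IRF4 and is needed for several helper T cell fates, had 77.1, 86.2 and 28.3 TPM. Its relative Batf3, a factor of dendritic cells and of T-helper 1 cells, had 0 counts in each library, which allows up to 0.833, 1.47 and 1.18 TPM. With that floor of 3 counts per library, Batf lay 92.5-, 58.5- and 23.97-fold above what Batf3 is allowed in replicates 1, 2 and 3. The counting error of Batf itself is not in these values. Atf3, a stress-induced AP-1 member, had 23, 0 and 6 counts. The libraries of Batf, Fos and Atf3 did not share an order: replicate 2 was the highest for Batf and the only library at 0 for Fos and Atf3.

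**Figure D2:**
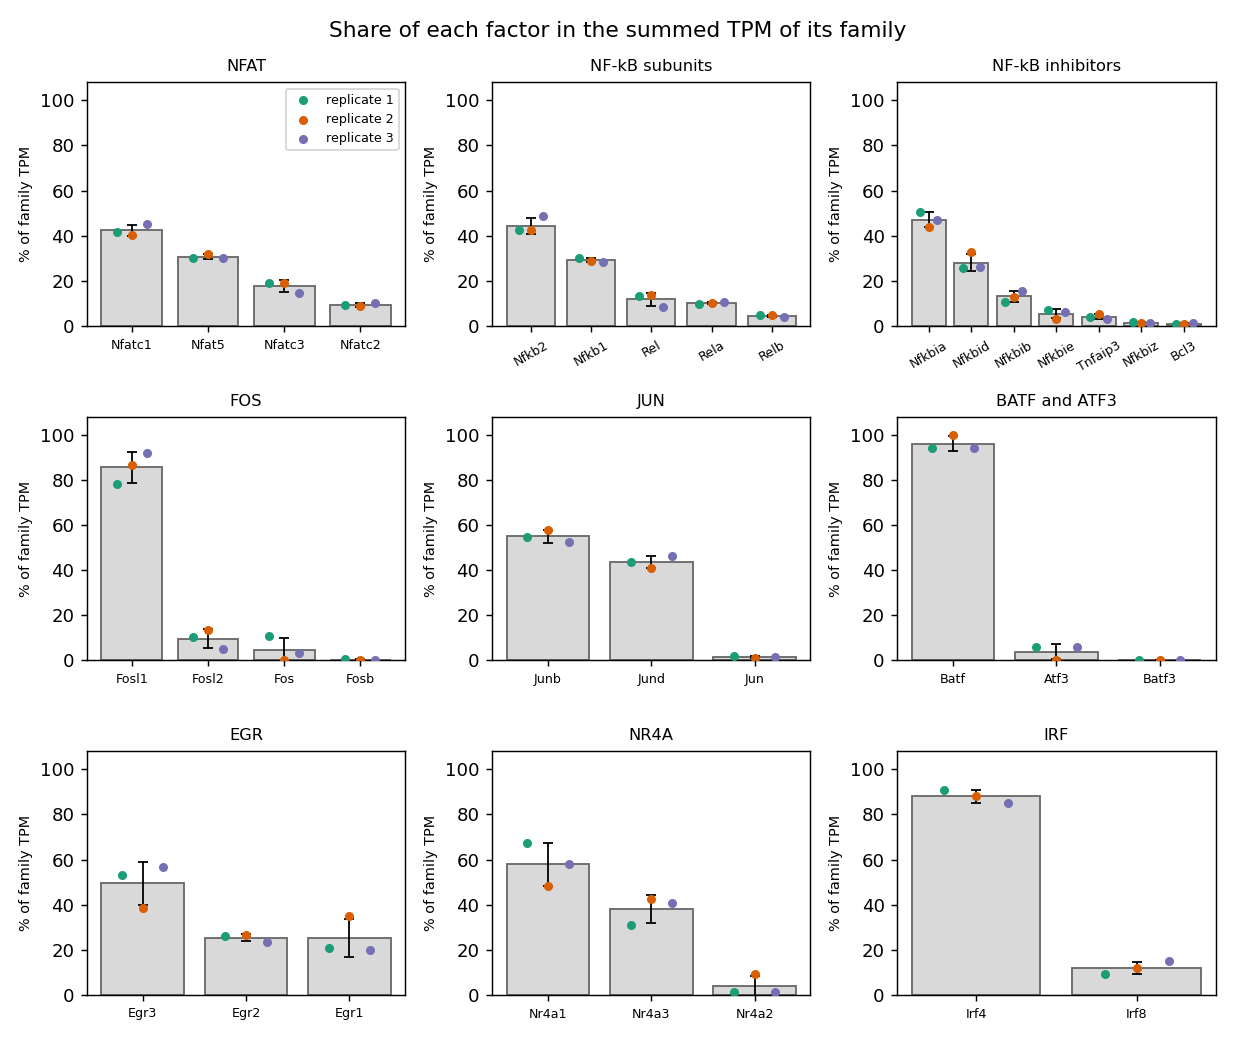
Share of each gene in the summed TPM of its family, in percent, for 9 families, with a bar for the mean, a line for 1 SD (n = 3) and a point per library. Nfatc1, Nfkb2, Nfkbia, Fosl1, Junb, Batf, Egr3, Nr4a1 and Irf4 hold the largest mean share of their families.

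In the plot of family shares, the leading gene held 85.6% of the FOS sum, 96.1% of the BATF and ATF3 sum and 88.0% of the IRF sum on average. The leading gene held 57.95% of the NR4A sum, 54.95% of the JUN sum, 49.4% of the EGR sum, 47.1% of the inhibitor sum, 44.5% of the NF-kB subunit sum and 42.3% of the NFAT sum.

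All 3 EGR genes of the list were detected, while Egr4, a family member outside it named after its values were seen, had 0 counts in each library. Egr3, which with Egr2 restrains T cell responses and supports tolerance, was the highest with 25.1, 12.2 and 11.1 TPM. Egr2 had 12.4, 8.31 and 4.63 TPM and Egr1, the classical immediate early member, had 9.69, 11.01 and 3.93 TPM. The log2 ratio of Egr2 to Egr1 was 0.33, -0.37 and 0.19, so the 2 genes were not ordered beyond the spread (0.05 ± 0.37; SD, n = 3), and in CPM the mean turned to -0.32.

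Egr2 was the only factor with a window that held a CArG box, the site of serum response factor (3.57% of 28 factors, against 1.62% of genes). It is shown because serum response factor is the textbook activator of EGR genes, with the box in capitals, from chr10:67537772-67537831 (plus strand).
Egr2: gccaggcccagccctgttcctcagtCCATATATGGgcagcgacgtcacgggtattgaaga
This box begins 72 bases before a RefSeq start of Egr2.

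The NR4A orphan nuclear receptors, which antigen receptor signals induce, were led by Nr4a1 (Nur77) with 47.9, 30.7 and 21.3 TPM. Nr4a3 had 22.1, 27.0 and 15.0 TPM and lay below Nr4a1 in each library, by 0.58 ± 0.46 in log2 ratio (SD, n = 3), while in CPM the ratio turned to -0.66. Nr4a2 had 9, 30 and 3 counts (0.984, 5.79 and 0.465 TPM). Nr4a2 reached 1 TPM in replicate 2 and in no other library, and its share of the NR4A sum was 1.39%, 9.12% and 1.26%.

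Irf4, the factor whose level follows the strength of antigen receptor signalling, was the highest of all 37, with 308, 234 and 153 TPM from 3271, 1410 and 1149 counts. Its gene lies on chromosome 13 from 30749226 to 30766927 (mm10, plus strand), and among clear coding genes its level stood at percentile 99.1. Myc, which drives growth and metabolism in dividing T cells, had 251, 202 and 159 TPM and stood at percentile 99.0. Both were lowest in replicate 3 in TPM, but on the scale of clear genes Myc had 808, 713 and 886 TPM and was highest there.

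Irf8, best known in B cells, macrophages and dendritic cells, had 31.2, 31.5 and 26.7 TPM, and Irf4 exceeded it by 2.86 ± 0.39 in log2 ratio (SD, n = 3). Of markers of those cells, 0 of 6 for B cells and 0 of 6 for dendritic cells were detected, with summed levels of 8.53, 0 and 7.34 TPM and of 1.16, 4.803 and 0.719 TPM. The B cell sum came almost wholly from Cd79a (27, 0 and 17 counts) and the dendritic cell sum from Xcr1 (8, 21 and 3 counts) and Zbtb46 (7, 12 and 4 counts), while Ms4a1, Pax5, Ebf1, Itgax, Flt3, Siglech and Clec9a had 0 counts in each library. The macrophage and monocyte markers summed to 121.5, 112 and 137 TPM, all from Csf1r, which is not clear, and the other 5 had 0 counts. Bhlhe40, which sustains cytokine output of helper T cells and represses Il10 in mice, had 46.5, 38.2 and 19.2 TPM.

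Several factors are neighbours in the genome. Batf and Fos lie 209 kb apart on the plus strand of chromosome 12 (mm10), Batf from 85686669 to 85709087 and Fos from 85473890 to 85477273, where Batf lay above Fos in each library. Relb and Bcl3 lie 179 kb apart on the minus strand of chromosome 7 (11.5 and 3.28 TPM), and Fosb lies 296 kb from Relb on the same strand (0.0474 TPM). Fosl1 and Rela lie 182 kb apart on the plus strand of chromosome 19 with mean levels of 23.3 and 25.4 TPM, and Fosl1 lay below Rela in replicates 1 and 2 and above it in replicate 3. Atf3 and Batf3 lie 61.4 kb apart on opposite strands of chromosome 1. These were the 5 neighbouring pairs within 500 kb, a distance chosen after the positions were seen.

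Ratios within families were tested with a two-sided exact sign-flip permutation test over the 3 libraries for 12 pairs. Of these, 9 kept their sign in each library, and each of the 9 had an exact p = 0.25, the smallest value 3 libraries allow, with a Benjamini-Hochberg adjusted p of 0.333. No ratio could pass a threshold of 0.05 in this design. The other 3, Fosl2 to Fos, Rel to Rela and Egr2 to Egr1, changed sign between libraries, with exact p = 0.5, 0.5 and 1.

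The factors followed the libraries as coding genes did. In TPM, 26 of the 32 detected factors were lowest in replicate 3, and 19 were highest in replicate 1, 11 in replicate 2 and 2 in replicate 3. Relative to its own mean log2(TPM + 1), the median detected factor deviated by 0.31, 0.08 and -0.43 in replicates 1, 2 and 3, against 0.31, 0.13 and -0.43 over all detected coding genes. The median SD was 0.457 for detected factors and 0.499 for detected coding genes. The summed T cell markers were lowest in replicate 3 too, and the share of counts on genes with opposite exons was highest there; the part of either in these values was not tested. With clear genes alone as the scale, 9 of the 24 detected clear factors were lowest in replicate 3, against 21 of 24 in TPM. These counts of factors by library were not made over all coding genes. On that scale the highest clear factors were Irf4 (890 ± 86.6 TPM), Myc (802 ± 86.8), Nfkbia (664 ± 76.5), Nfkbid (393 ± 32.2), Nfkb1 (286 ± 21.6) and Batf (237 ± 73.8; SD, n = 3). That is their order in TPM too, and the order within a library cannot change on that scale. Rela had 98.7, 94.7 and 104.5 TPM there and Nfatc1 107, 117 and 105 TPM, while Fosl1 had 66.8, 64.8 and 170 TPM.

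Whether a factor's counts differed between the 3 libraries by more than counting error was asked with a chi-square test of homogeneity on library sizes scaled by the trimmed mean of M values (TMM) in edgeR. Of 31 factors with enough counts, 22 passed a Benjamini-Hochberg adjusted p of 0.05, against 71.1% of 9466 genes tested. Among clear genes scaled by themselves, 13 of 23 factors passed, against 51.3% of 5127 genes. Both counts lie near the share among all genes. The test compares these libraries and not conditions. It sets deviations against counting error alone, so genes with higher counts pass at smaller deviations. With a library left out, 14 of 31 factors passed without replicate 1, 13 of 32 without replicate 2 and 11 of 32 without replicate 3, against 51.2%, 44.9% and 45% of the genes tested.

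**Figure D3:**
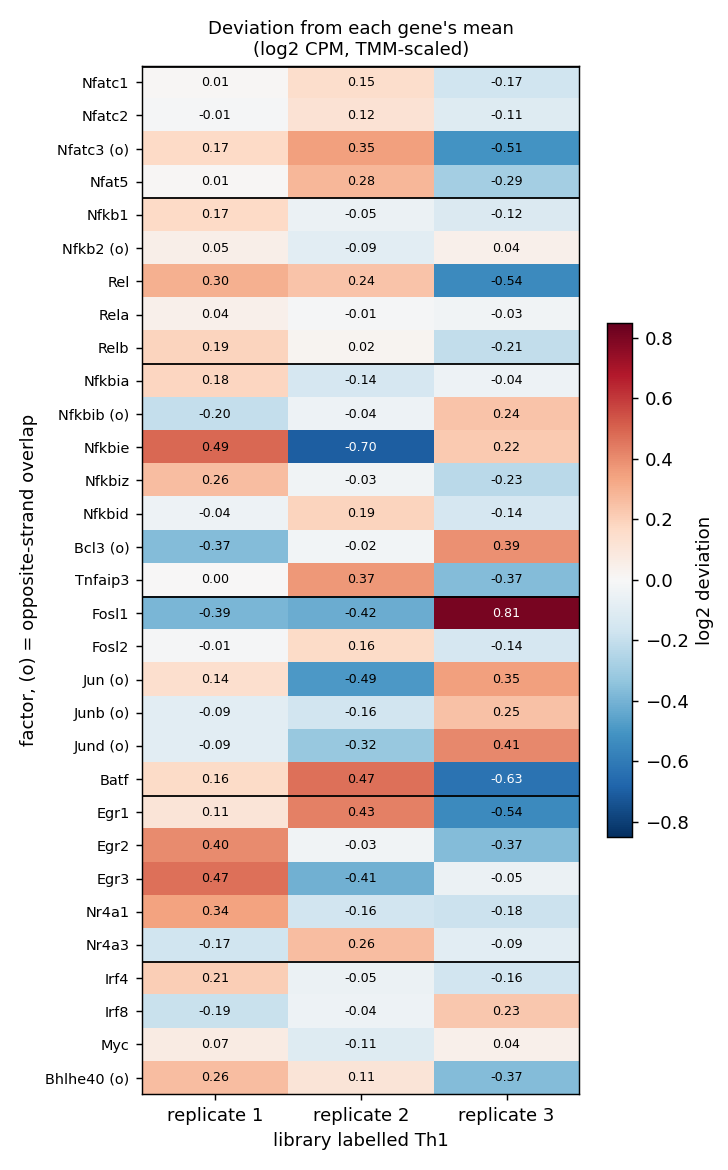
Deviation of each of the 31 tested factors from its mean over the 3 libraries, in log2 CPM on TMM-scaled library sizes, with red above and blue below the mean and the value in each cell. The largest value is that of Fosl1 in replicate 3 (0.81), and (o) marks factors with exons opposite another gene.

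In the map of deviations, the factors that passed were lowest in replicate 3 for 12 of 22, in replicate 2 for 7 and in replicate 1 for 3. That count was not made over all genes that passed. Rel was high in replicates 1 and 2 and low in replicate 3, by 0.30, 0.24 and -0.54 (adjusted p = 3.2e-11, chi-square test of homogeneity with Benjamini-Hochberg adjustment). Batf followed the same order of replicate 3 against the rest, with 0.16, 0.47 and -0.63 (adjusted p = 0.000206 by the same test). Fosl1 went the other way, at -0.39, -0.42 and 0.81 (adjusted p = 4.59e-08 by the same test).

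Nfkbie departed in replicate 2, with 0.49, -0.70 and 0.22 (adjusted p = 3.76e-05 by the same test). These 4 kept their signs and passed on the scale of clear genes, where Fosl1 stood at -0.52, -0.49 and 1.01. Of 17 clear factors that passed on the TMM scale of all genes, 13 also passed on the scale of clear genes, and Egr1, Egr2, Egr3 and Nr4a1 did not. Rela lay at the other end, with 0.04, -0.01 and -0.03 (adjusted p = 0.923 by the same test). Irf4 deviated by 0.21, -0.05 and -0.16 (adjusted p = 9.35e-15 by the same test), and its sign in replicate 3 turned on the scale of clear genes, where it deviated by 0.08, -0.12 and 0.04.

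For 8 factors the exons overlap exons of the other strand, in 9 pairs, and the opposite gene often held more counts. Jund had 407, 179 and 261 counts, whereas Gm11175, an antisense gene lying wholly within its exons (877 bases, 52.6% of those of Jund), had 8094, 2711 and 8349. Per kilobase Gm11175 had 42.5 ± 16.5 times the counts of Jund (SD, n = 3). The antisense gene Gm16175 had 52.6 ± 19.0 times those of Bcl3, 0610040F04Rik 9.09 ± 6.43 times those of Bhlhe40 and Junos 2.74 ± 0.72 times those of Jun.

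All 4 antisense partners thus lay above their factor per kilobase in each library, against 75.3% of 937 such pairs of coding and antisense genes with at least 30 counts. Of the 5 coding partners, 2 did so: Esrp2, a splicing factor of epithelial cells opposite Nfatc3 (4.52 ± 3.29 times), and Psd opposite Nfkb2 (1.95 ± 0.846 times; SD, n = 3). Prdx2, a peroxidase gene opposite Junb, lay below it at 0.354 ± 0.0951 of its counts per kilobase, as did Ccer2 (0.122 ± 0.106) and the deacetylase gene Sirt2 (0.378 ± 0.0509; SD, n = 3) opposite Nfkbib. For coding partners no share over all such pairs of coding genes was computed. Per the headers, counts were made at strand setting 1, and the kit is not given in the sources used here. Beside these pairs stand mt-Co2, mt-Atp6 and mt-Co3, which had 0 counts in each library. Whether reads of the whole table were counted on the opposite strand was not tested. In that case every level above would describe the other strand, those of clear factors and the comparisons with genes at 0 counts included.

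**Figure D4:**
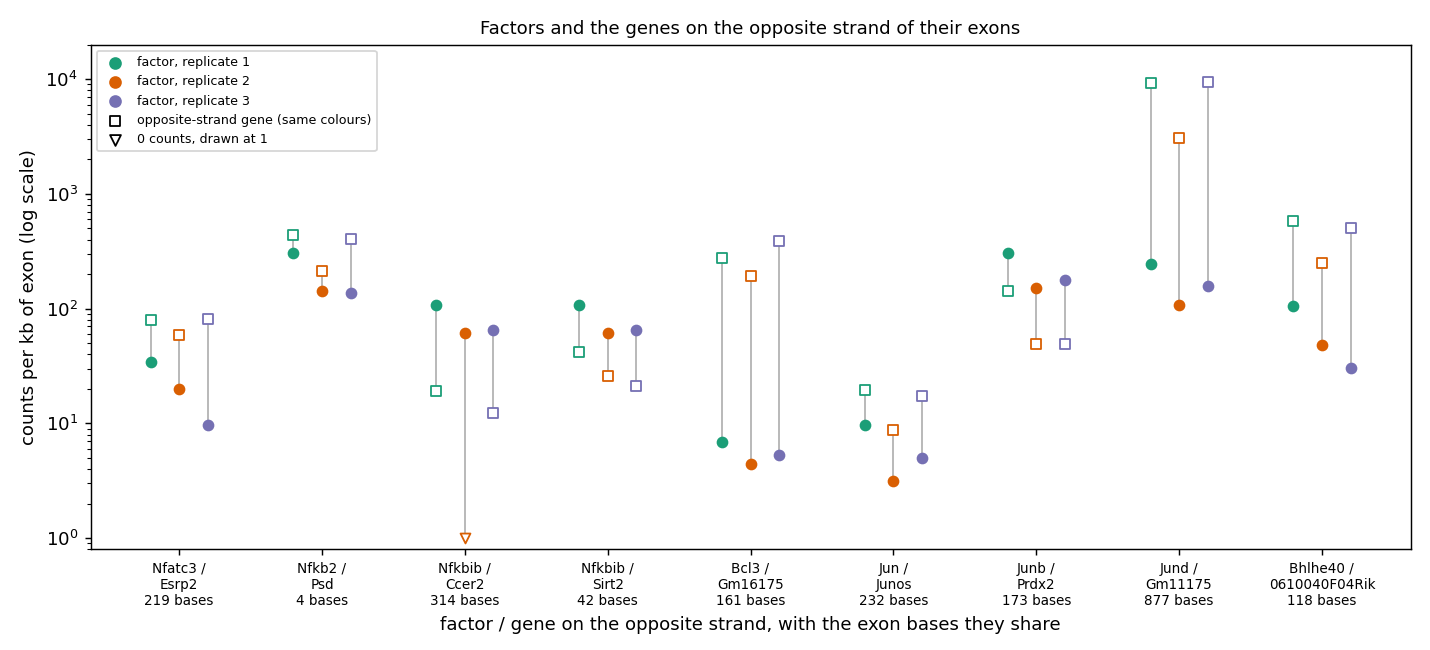
Counts per kilobase of exon, on a log axis, for 8 factors (filled circles) and the genes whose exons overlap theirs on the other strand (open squares), joined by a line within each library, with the shared exon bases under each pair. Gm11175 lies above Jund and Gm16175 above Bcl3 in each library, whereas Prdx2 lies below Junb, and the open triangle marks a count of 0 drawn at 1.

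The plot of opposite genes places Jund and Bcl3 furthest below their partners. It places Junb and Nfkbib above their partners in each library. The part of the other strand in the levels of these factors was not tested.

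The genes that lead to these factors were largely detected. Of 15 calcium and calcineurin genes 14 were detected, among them the calmodulin genes Calm2 (143 ± 40.8 TPM) and Calm3 (58.2 ± 18.1; SD, n = 3), both clear. Of 16 genes of the relay to NF-kB 15 were, led by the IkB kinase scaffold Ikbkg (37.7 ± 4.88 TPM, not clear), the paracaspase Malt1 (24.1 ± 8.66) and the adaptor Tab2 (20.2 ± 8.95). Of 21 MAP kinase relay genes 20 were. Among clear genes of these 3 lists 8 of 9, 12 of 13 and 15 of 16 were detected, against the 33.6% of clear coding genes given above.

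Genes that limit the signals and further family members came next. Of 14 NFAT export kinases and calcineurin inhibitors 10 were detected, with Homer3, a scaffold that competes with calcineurin for NFAT (373 ± 43.4 TPM, opposite Ddx49), Gsk3a (123 ± 13.5, not clear) and Csnk1a1 (31.1 ± 10.6) the highest. Of 21 feedback regulators 17 were, with the MAP kinase phosphatase genes Dusp5 (99.9 ± 18.9 TPM) and Dusp2 (72.8 ± 25.9) and Nab2, a co-repressor of EGR factors (92.6 ± 12.7, not clear), the highest. Of 30 further members of the same factor families 21 were detected, led by Irf5 (542 ± 44.8 TPM, opposite Tnpo3), Atf4 (248 ± 87.0) and Atf5 (117 ± 26.0, not clear; SD, n = 3).

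Of 24 known targets 21 were detected, led by the costimulatory receptor Tnfrsf4 (257 ± 96.5 TPM), the cytokine Lta (244 ± 70.6) and Cd40lg, which licenses B cells (183 ± 83.1; SD, n = 3). All 3 are clear. Among clear genes of the last 4 lists 5 of 8, 13 of 17, 12 of 18 and 15 of 17 were detected, against the same 33.6% of clear coding genes.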

How the data were processed

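Whole-number counts per gene and gene lengths in bases were deposited for 3 libraries. Per the file headers, featureCounts v1.4.6-p4 counted reads at strand setting 1 in GENCODE vM13 exons (mm10). Neither the library kit nor an aligner version is given in the sources used here. Identifiers were named from GENCODE vM21 (50376 of 50600), and all 221 genes of the lists were found. From the deposited counts and lengths, TPM and counts per kilobase were computed here, with a pseudocount of 1 on log scales. Overlaps between strands were computed from the deposited exon coordinates. For a gene at 0 counts, 3 counts were used as the floor, which covers the counting error of that gene only.

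Homogeneity was tested over all genes that pass filterByExpr, with TMM sizes and a prior count of 0.5 for log CPM. Rcan1, Fos, Fosb, Batf3, Atf3 and Nr4a2 did not pass it. Before use the test was checked on simulated counts with counting error alone and changes set in some genes. That setting lacks the wider spread of these libraries, where 71.1% of genes tested passed, and does not cover it. Promoter sequences are those of RefSeq. Named genes were all factors, genes opposite their exons and the 3 highest members of each other list; others are said to be chosen later or are markers. Values of some genes under this rule are not reported here. The factors and lists were chosen with earlier results of these data known. Alternatives were other units, thresholds, scalings, filters and pseudocounts, and each library left out. With 1 group there were no conditions to compare. Scripts ran in R 4.3.3 (DESeq2 1.42.0 and edgeR 4.0.16) and Python 3.11.15, with SciPy 1.17.1, numpy 2.4.6, matplotlib 3.10.9 and pandas 2.3.3.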

Additional observations from a re-analysis of the deposited data

How the results depend on the processing

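No paired analysis was possible because there was 1 group. Detected factors numbered 24 at a TPM of at least 5, 35 by mean TPM, 31 in FPKM, 31 with at least 10 counts, 25 among clear factors on their own scale, and 32 to 34 with a library left out. The median level was 10.5 in FPKM and 76.5 TPM over clear genes, which follows from the scale itself. With DESeq2 size factors, 21 of 31 factors differed between libraries, against 68.3% of genes tested. With total counts 24 of 31 did, against 83.5%, and with no filter 25 of 36, against 50.6%. Over clear genes, where fewer factors were tested, 13 of 23 did, against 51.3%. With a library left out 11 to 14 factors did, against the shares given above. On CPM without length scaling, log2 ratios were 1.26 for Nfkb1 to Nfkb2, -0.32 for Egr2 to Egr1 and -0.66 for Nr4a1 to Nr4a3, the reverse of TPM. Egr2 to Egr1 ran between -0.09 and 0.26 with a library left out (-0.09 without replicate 1 and -0.02 without replicate 3). At a TPM of 5 the detected genes were 8 for calcium and calcineurin, 6 for NFAT export kinases and calcineurin inhibitors and 12 for other family members. Of the other comparisons of this kind, 114 kept their direction or stayed within 1.5 times or the replicate spread. The 111 mean levels of single factors with a library left out stayed within 1 SD. With 3 libraries they could not do otherwise. Nor could a ratio with the same sign in each library turn when a library was left out. The spread of low factors is wide, however: without replicate 1 the mean of Fos was 0.535 TPM in place of 1.299, that of Atf3 0.876 in place of 2.163 and that of Fosb 0 in place of 0.0474, and without replicate 2 that of Nr4a2 was 0.724 in place of 2.414 and that of Fos 1.949. Factors under about 30 counts per library, such as Fos, Jun, Bcl3 and Rcan1, are limited by depth.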
